A study of Mus musculus with 11 samples.

Results

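Aminoacyl-tRNA synthetases join each amino acid to its transfer RNA and so supply the ribosome with its substrates. Mammalian cells hold separate nuclear-encoded sets of these enzymes, one for the cytosol, which makes globin and nearly all other proteins, and one that is imported into mitochondria, where a small number of respiratory chain subunits are made. Some genes, Gars and Kars among them, serve both places from one gene. Several cytosolic enzymes sit together in the multisynthetase complex, and in cells short of an amino acid the transcription factor Atf4 is known to raise the messenger RNA of many cytosolic synthetases. Erythroid precursors combine heavy globin synthesis with the later loss of their mitochondria.

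The genes were chosen by symbol: those of the platform annotation with 1 letter followed by ars, with or without 1 or 2, and Eprs. This gave 33 of the 18193 annotated genes, 16 mitochondrial (suffix 2) and 17 cytosolic (no suffix or 1). Farsa and Farsb, the subunits of the cytosolic phenylalanine enzyme, fall outside the symbol rule and are given with the related genes. Each gene was represented by the probe set, annotated to that gene alone, with the highest mean log2 signal over all arrays. All 33 passed the filter on dim probe sets, which left 13100 genes tested in all.

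Fetal livers of C57/Bl6 mouse embryos at E14.5 were sorted straight after isolation by staining for Ter119, an erythroid surface antigen, and CD71, the transferrin receptor, into 5 fractions of increasing maturity. The least mature fraction, R1, was hybridised to 2 arrays, R2 and R3 to 3 each, R4 to 1 and R5, the most mature, to 2, and all came from 1 strain, with no treatment given in the labels. The labels do not say whether arrays of one fraction stem from different litters or different sorts, so the p-values reflect array-to-array spread that may be technical. The series asks how expression changes through terminal erythroid differentiation.

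Some features of the arrays moved with the stage and stand beside every result below, and their part in the results was not tested. The median signal of an array, the cut for dim signals, was 62.5 and 92.1 in R1 and 53.6 to 66.9 in R2. It was 72.5 to 87.2 in R3, 106.4 on R4 and 120.4 and 107.6 in R5. The trimmed mean (2% off each end) was 500 on every array. The mean log2 signal of 7 erythroid markers (Alas2, the first enzyme of heme synthesis in erythroid cells, among them) was 14.31 and 15.14 on the R5 arrays and 9.28 and 10.69 on the R1 arrays. All 8 measured hepatocyte markers were called higher in R3 than in R2. Their array means were 11.20 to 12.19 in R3 and 6.99 to 8.62 in R2, and none was at 0. The control transcript for pyruvate carboxylase, read at both ends to gauge how complete the RNA is, had a log2 signal at its 3′ end above that at its 5′ end by 2.27 and 4.62 in R5, 2.45 to 3.29 in R3, 0.75 to 1.84 in R2 and 0.20 and 0.38 in R1. For beta-actin that gap lay between 0.21 and 0.83 on all arrays. The Gapdh gaps were -0.46 to -0.01 in R1, R2 and R3, and 0.23 and 0.20 in R5. Transferrin receptor gaps were wide at every stage and overlapped: 3.37 and 2.03 in R1, 1.63 to 3.20 in R2. They were 1.88 to 2.58 in R3 and 2.89 and 2.04 in R5. A stage-wise widening of several log2 units was thus seen for pyruvate carboxylase alone among these controls. In sorted bulk cells, fewer cells of a type and less of an RNA per cell cannot be told apart.

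Promoter windows of 250 bases before to 50 after the transcript start were held by RefSeq (build GRCm38.p6) for 24 of the 33 genes, 14 mitochondrial and 10 cytosolic. None was held for the cytosolic genes Cars, Hars, Lars, Nars, Rars, Vars and Wars or for Hars2 and Pars2. Those genes were not searched. On either strand, TGATGNAA, the element bound by Atf4 with C/EBP factors, was found in 0 of the 14 mitochondrial windows and 5 of the 10 cytosolic ones (Aars, Gars, Iars, Tars and Yars). Over all genes, it occurred in 4.51% of the 27025 with a window. Matches are shown because among these 24 windows the element occurred in cytosolic ones alone. Each line below is the gene's own strand, 5′ to 3′, with the match in capitals (TTGCATCA and TTTCATCA are the element on the opposite strand). Numbering counts from 1 at the first transcribed base, with the base before it as -1.
Aars, chr8:111033840-111033869, plus strand, match at 10 to 17: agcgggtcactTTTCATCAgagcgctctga
Gars, chr6:55037960-55037989, plus strand, match at -30 to -23: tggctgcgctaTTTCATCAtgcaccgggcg
Iars, chr13:49682126-49682155, plus strand, match at 8 to 15: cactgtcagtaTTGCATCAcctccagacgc
Tars, chr15:11399655-11399684, minus strand, match at -15 to -8: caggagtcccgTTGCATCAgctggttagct
Yars, chr4:129189895-129189924, plus strand, match at 4 to 11: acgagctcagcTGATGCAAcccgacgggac
The Gars and Tars matches lie before the start, and the other 3 shown lie within the first transcribed bases. A start need not be the outer edge of its gene in the annotation: among the genes shown here, it lies 6064 bases inside the edge for Aars, 1388 for Tars2, 169 for Yars, 47 for Vars2 and 10 for Cars2, and at the edge for Gars, Iars, Tars and Yars2. A match is a description of the letters and not evidence of binding.

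The last 100 bases before the start are shown for threonyl-tRNA synthetase in its cytosolic form, which has a match (capitals). They are also shown for the 4 mitochondrial genes called lower in R3 than in R2. Like all 14 mitochondrial windows, theirs hold no match.
Tars, cytosolic, chr15:11399659-11399758, minus strand: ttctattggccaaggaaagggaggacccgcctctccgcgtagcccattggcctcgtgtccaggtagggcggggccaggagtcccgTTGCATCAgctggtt
Tars2, mitochondrial, chr3:95754978-95755077, minus strand: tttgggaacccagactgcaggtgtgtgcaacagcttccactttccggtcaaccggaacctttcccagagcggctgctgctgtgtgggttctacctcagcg
Vars2, mitochondrial, chr17:35667593-35667692, minus strand: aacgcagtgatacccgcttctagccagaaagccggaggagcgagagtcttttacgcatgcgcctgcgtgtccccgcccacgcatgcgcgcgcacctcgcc
Yars2, mitochondrial, chr16:16302865-16302964, plus strand: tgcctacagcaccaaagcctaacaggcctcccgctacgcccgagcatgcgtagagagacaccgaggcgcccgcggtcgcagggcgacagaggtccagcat
Cars2, mitochondrial, chr8:11550772-11550871, minus strand: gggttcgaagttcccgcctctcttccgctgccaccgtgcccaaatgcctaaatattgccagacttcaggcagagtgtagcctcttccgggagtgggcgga
Over the whole windows, the Myc and Max E-box CACGTG was found in 1 mitochondrial gene (Ears2) and 3 cytosolic genes (Aars, Iars and Tars). The share was 8.09% over all genes with a window. The Gata motif AGATAA was found in 2 mitochondrial genes (Aars2 and Sars2) and 0 cytosolic ones, against 12.7% of all such genes. CCAAT, the NF-Y box, was found in 6 mitochondrial and 7 cytosolic genes, against 41.1% of all such genes. Both strands were searched, and no motif is contained in another.

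The mean log2 signal of the 16 mitochondrial genes was 9.04 and 8.68 on the R1 arrays, 9.41, 9.15 and 9.38 on R2, 8.11, 7.54 and 8.43 on R3, 8.23 on R4, and 8.32 and 7.33 on R5. Every R3 array was under every R2 array, and the later arrays stayed under R2 as well. For the 17 cytosolic genes it was 11.73 and 10.89 on R1, 12.05, 11.76 and 12.08 on R2, 11.74, 11.36 and 11.86 on R3, 11.33 on R4, and 11.20 and 10.54 on R5. The R3 arrays overlapped those of R2, and both R5 arrays were under all R3 arrays. By the moderated F-test over R1, R2, R3 and R5, 15 of the 33 genes differed between stages at a Benjamini-Hochberg adjusted p under 0.05 in limma, against 36.9% of all genes tested. They were 7 of 16 mitochondrial genes (Cars2, Fars2, Iars2, Nars2, Tars2, Vars2 and Yars2) and 8 of 17 cytosolic genes (Aars, Cars, Hars, Kars, Lars, Nars, Sars and Tars). The count was 7 without replicate 1 or without replicate 2 of R2, and 9 without replicate 3 of R2 or replicate 2 of R3. Calls over all genes in those fits were 2695, 3237, 4236 and 3248, beside 4839 with all arrays. Both counts were higher without replicate 1 of R5, which leaves 1 array in R5.

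**Figure D1:**
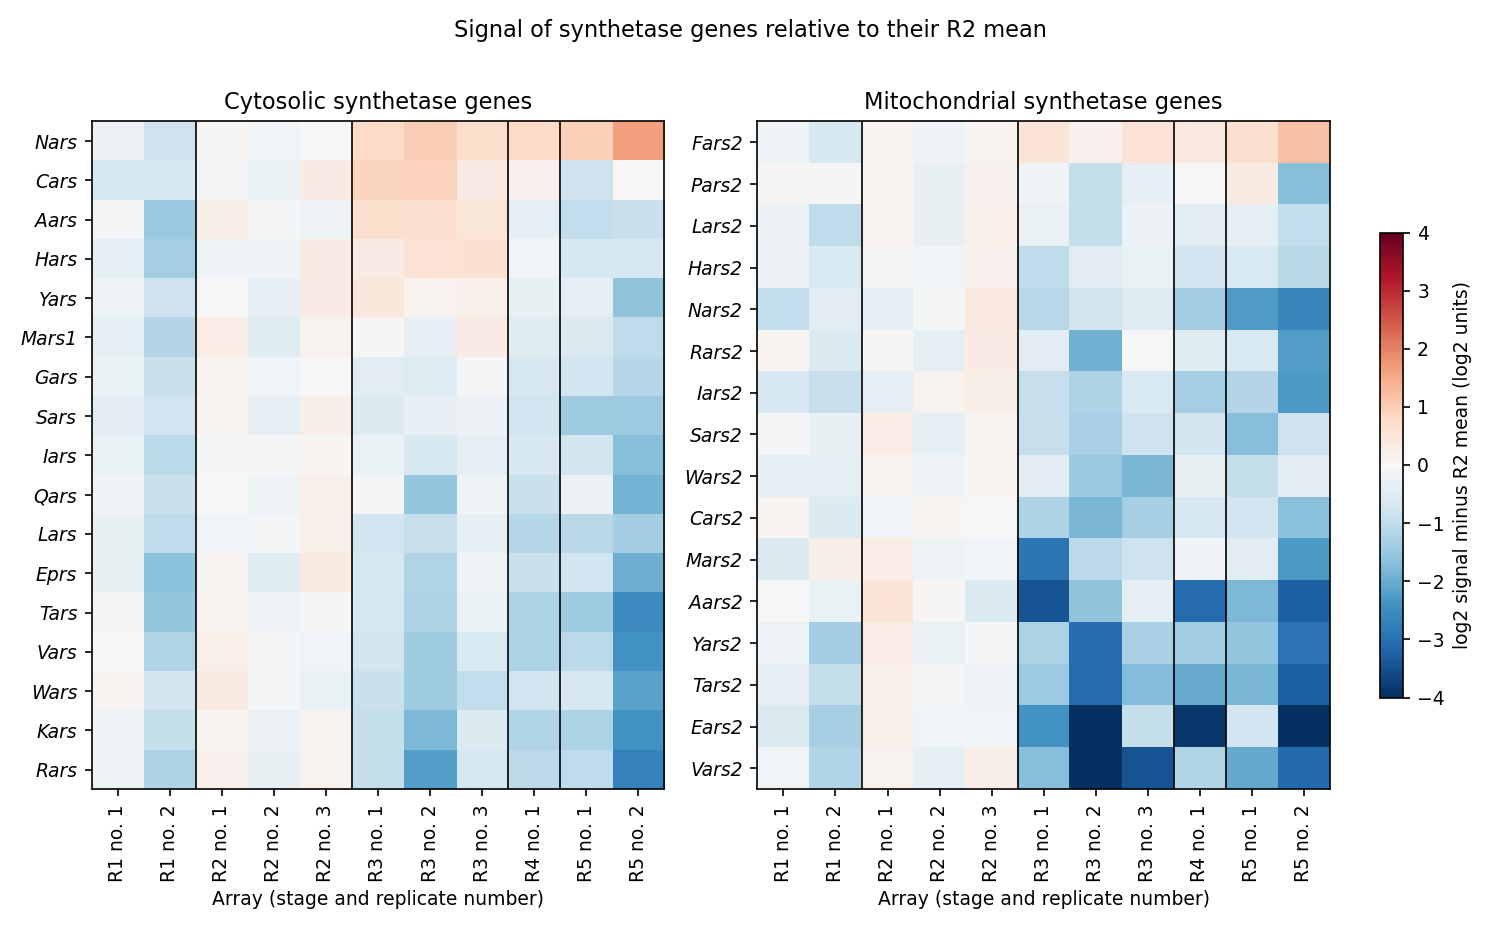
Colour gives the log2 signal of each synthetase gene (rows) on each of the 11 arrays (columns, in stage order) minus the gene's own mean over the 3 R2 arrays. Most mitochondrial genes turn blue from R3 onwards, Nars and Fars2 turn red, and Aars, Cars and Hars are red in R3 and paler or blue in R5.

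Between R1 and R2, no synthetase gene passed the test, while nearly all had a higher mean in R2. Of the 33 genes, 32 had a positive log2 change (R2 minus R1), the exception being Pars2, the mitochondrial prolyl enzyme, at -0.05. Of all 13100 genes, 6158 had a positive change. The median change was 0.42 for mitochondrial and 0.65 for cytosolic genes, against -0.05 for all genes tested. The mitochondrial changes ran from -0.05 to 0.94 and the cytosolic ones from 0.32 to 0.97. Most markers of several other cell types had negative changes in the same comparison. The array means were 5.52 to 7.40 in R2, against 8.77 and 9.65 in R1, for mast cell markers (8 of 8 changes negative, 0 called). They were 5.70 to 7.38, against 7.88 and 9.84, for lymphocyte markers (7 of 7 negative, 1 called), 8.40 to 9.94, against 10.84 and 11.01, for progenitor markers (6 of 7 negative, 0 called), and 7.53 to 7.81, against 8.46 and 9.28, for macrophage markers (8 of 9 negative, 0 called). All 8 hepatocyte and 7 endothelial markers were negative too, with 0 called, while those of granulocytes and megakaryocytes were mixed. Their part in the synthetase changes was not tested.

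Hars, the histidyl enzyme, had log2 signals of 13.15, 13.15 and 13.63 in R2 and 12.93 and 11.94 in R1. Every R2 array was above both R1 arrays, and its change of 0.88 ± 0.32 (SE) had an adjusted p of 0.269 by limma. It was the 1 synthetase gene with an unadjusted p under 0.05, against 13.4% of all genes. The R2 arrays lay above both R1 arrays for 13 genes (6 mitochondrial and 7 cytosolic) and below them for 0, against 14.2% and 22.1% of all genes. At the adjusted threshold 0 genes were called, against 0.466% of all genes, with 0.351% higher and 0.115% lower. The R1 arrays differed from each other, and without replicate 2 of R1 the median change was 0.23 in both sets. Without replicate 1 of R1 the cytosolic median was 1.01.

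Between R2 and R3, 4 mitochondrial synthetase genes fell and no cytosolic gene was called in the main fit. That fit used all 11 arrays on the deposited scale, with 1 probe set per gene and no replicate block. The 4 were Vars2, Tars2, Yars2 and Cars2, which charge mitochondrial transfer RNAs with valine, threonine, tyrosine and cysteine. The fold was 0.112 for Vars2 and 0.363 for Cars2 (R3 over R2). The share of all genes called was 20.7%, with 10.6% higher and 10.1% lower, so 4 of 33 is a smaller share than the background, and 4 of 16 mitochondrial genes lower stands beside 10.1%. With each array centred on its median, only 21.7% of all calls were higher, against 51.1% on the deposited scale. The labels give each set of replicates one extraction date without saying whether a set is a stage or a replicate number. With the number as a block, 7 mitochondrial and 6 cytosolic genes were called lower and 1 cytosolic gene, Nars, higher. In that fit 2377 of all 13100 genes were called lower and 1820 higher. With only the stages compared, 7 mitochondrial and 4 cytosolic genes were called lower and again Nars higher. There 2126 of all genes were called lower and 1641 higher. Kars was called lower with quantile normalization, and Wars with the mean of all probe sets.

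Vars2 had log2 signals of 7.12, 4.52 and 5.36 in R3 and 8.97, 8.42 and 9.08 in R2. All R3 arrays lay below all R2 arrays, and the R3 arrays differed more from each other than those of R2 did. The change was -3.16 ± 0.64 (limma adjusted p = 0.00922). Its second probe set changed by -2.61. Replicates 2 and 3 of R3 were below the array median, so the size of the fall rests on dim signals. R4 stood at 7.63, above every R3 array, and R5 at 6.76 and 5.70. Vars2 was called in each of the 11 fits that left out 1 array.

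Tars2 had signals of 9.44, 7.80 and 9.15 in R3 and 11.09, 10.81 and 10.76 in R2. The groups did not overlap, and replicate 2 of R3 was the lowest of these 6 arrays. The change was -2.09 ± 0.48 (limma adjusted p = 0.0157), and -1.80 for its second probe set. It stayed low on R4, at 8.86, and in R5, at 9.05 and 7.61. The call was lost without replicate 1 of R2 (adjusted p = 0.0639) and without replicate 2 of R3 (0.0559).

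Yars2 had signals of 9.04, 7.28 and 9.01 in R3 and 10.63, 10.06 and 10.26 in R2. The groups did not overlap, again with replicate 2 of R3 the lowest. The change was -1.87 ± 0.54 (limma adjusted p = 0.0358), with -1.59 for the second probe set. Its call was lost on leaving out any 1 array of R2 (adjusted p 0.119, 0.0783 and 0.0565 without replicates 1, 2 and 3) or replicate 2 of R3 (0.125). It was also lost under quantile normalization (0.0714) and without the intensity trend (0.0583).

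Cars2 had signals of 8.23, 7.62 and 8.11 in R3 and 9.35, 9.54 and 9.46 in R2. The R2 arrays lay close together and all R3 arrays were below them. The change was -1.46 ± 0.34 (limma adjusted p = 0.0172), with -1.26 for the other tested probe set. R4 stood at 8.82 and R5 at 8.68 and 7.77, so that R4 and replicate 1 of R5 lay above every R3 array. The adjusted p was 0.058 without replicate 1 of R2, 0.0618 without replicate 2 of R2, 0.0706 without replicate 2 of R3 and 0.0581 with the mean of all probe sets.

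**Figure D2:**
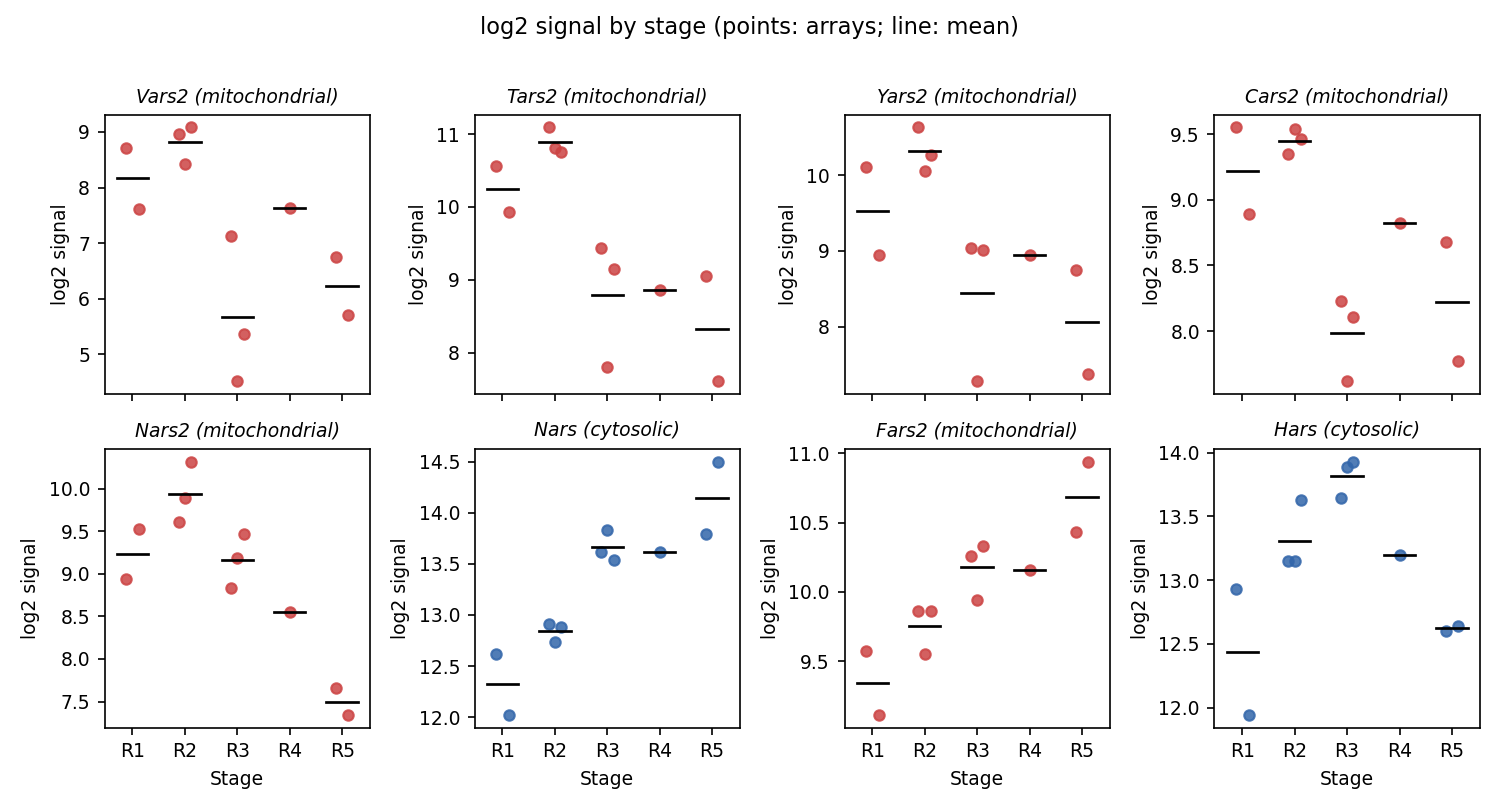
Points are log2 signals of single arrays by stage and lines are stage means, for the 7 genes called in a comparison and for Hars, each with its own vertical axis. Vars2, Tars2, Yars2 and Cars2 lie lower on all R3 arrays than on all R2 arrays, Nars2 declines to R5, and Nars and Fars2 are highest in R5.

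Of the other 12 mitochondrial genes, 11 had a negative change between R2 and R3 and none was called. Ears2, the glutamyl enzyme, had signals of 5.52, 3.31 and 6.99 in R3 and 8.14, 7.83 and 7.82 in R2. Its R3 arrays were all lower but spread widely, with replicates 1 and 2 below the array median. The change was -2.65 ± 0.97 (limma adjusted p = 0.0715). Wars2 for tryptophan changed by -1.24 ± 0.41 (adjusted p = 0.0524) and Sars2 for serine by -1.01 ± 0.36 (0.0637). Fars2, the mitochondrial phenylalanyl enzyme, was the exception, at 10.26, 9.94 and 10.33 in R3 and 9.86, 9.55 and 9.86 in R2. Every R3 array was higher, by 0.42 ± 0.28 (adjusted p = 0.272), while a second probe set of lower signal changed by -0.27.

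The cytosolic genes went both ways between R2 and R3, with 6 positive and 11 negative changes. The median was -1.13 for mitochondrial and -0.42 for cytosolic genes, against -0.14 for all genes tested. On arrays centred on their medians, 4 cytosolic changes were positive and 13 negative, and their median was -0.83. Nars, the cytosolic asparaginyl enzyme, had signals of 13.62, 13.83 and 13.54 in R3 and 12.91, 12.74 and 12.88 in R2. All R3 arrays were higher, and the change of 0.82 ± 0.26 just missed the threshold (limma adjusted p = 0.0503). It passed without the R4 array (0.0499), without replicate 1 of R5 (0.0218) and without replicate 2 of R5 (0.0223).

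Aars, the alanyl enzyme, had signals of 12.37, 12.32 and 12.15 in R3 and 11.88, 11.59 and 11.50 in R2, a change of 0.62 ± 0.33 (limma adjusted p = 0.181). A second Aars probe set of similar signal (mean log2 11.24 against 11.48) changed by 0.00, and its R2 and R3 arrays overlapped. Cars for cysteine changed by 0.71 ± 0.32 and Hars by 0.51 ± 0.29, and in each all R3 arrays were above all R2 arrays. At the other end were the arginyl and lysyl enzymes of the multisynthetase complex, Rars at -1.28 ± 0.51 (adjusted p = 0.0899) and Kars at -1.11 ± 0.40 (0.0663). The 7 measured enzymes of that complex (Eprs, Iars, Kars, Lars, Mars1, Qars and Rars) had a median change of -0.68, with 1 positive, and the 10 other cytosolic genes one of -0.03, with 5 positive. The 5 genes with a TGATGNAA match were spread over both directions: Aars 0.62, Yars 0.27, Gars -0.33, Iars -0.42 and Tars -0.74, and none was called. The cytosolic genes with the largest rise (Nars, 0.82) and the largest fall (Rars, -1.28) had no promoter window. Cars and Hars had none either, so how the element relates to direction was not tested.

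By enzyme class, the 18 class I genes had a median change of -0.92 with 3 called lower, and the 14 class II genes one of -0.52 with 1 called lower. Eprs joins enzymes of both classes and was left out of that count. An unadjusted p under 0.05 was reached by 11 mitochondrial and 6 cytosolic genes, against 40.1% of all genes. The R3 arrays lay below all R2 arrays for 11 mitochondrial and 7 cytosolic genes, against 27.4% of all genes. They lay above them for 1 mitochondrial gene and 4 cytosolic genes, against 22.6%.

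The number of synthetase genes called between R2 and R3 varied with the arrays in the fit. It was 1 without replicate 1 of R2 or replicate 2 of R3 and 2 without replicate 2 of R2. Calls over all genes in those fits were 840, 845 and 1095, beside 2716 with all arrays. Both counts were higher without either R5 array, which leaves 1 array in R5. With each array centred on its median, 14 synthetase genes were called, 10 mitochondrial and 4 cytosolic (Kars, Lars, Rars and Wars), all lower. On that scale 3103 of all 13100 genes were called lower and 862 higher.

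**Figure D3:**
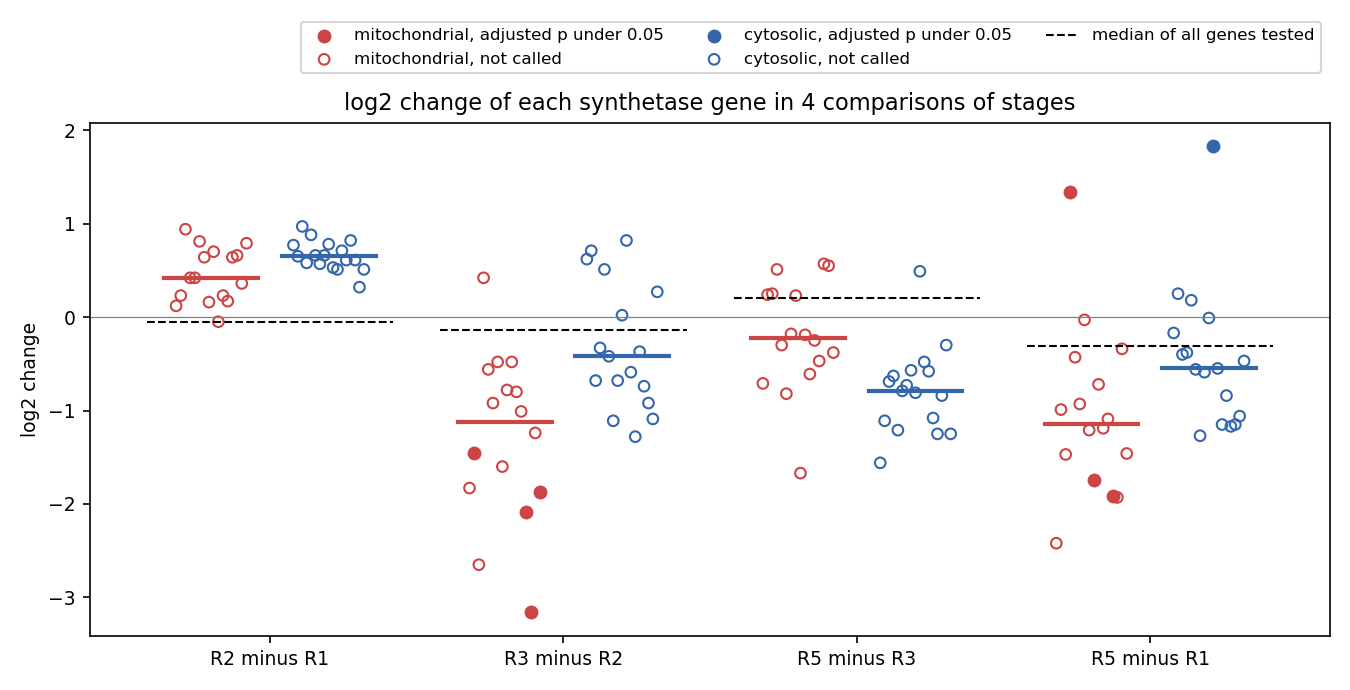
Points are the log2 change of each synthetase gene in 4 comparisons of stages, filled where the limma adjusted p was under 0.05, with the median of each set as a bar and that of all genes tested as a dashed line. In R3 minus R2 the mitochondrial median is -1.13 and the cytosolic one -0.42, and in R5 minus R3 the mitochondrial median is -0.22 and the cytosolic one -0.79.

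Set out by amino acid, 14 pairs of a mitochondrial and a cytosolic enzyme were matched by the letter of the symbol. Proline, served in the cytosol by Eprs, and phenylalanine, whose cytosolic subunits fall outside the symbol rule, were not among them. In both, the mitochondrial change was the higher one in R3 minus R2. Pars2 changed by -0.48 and Eprs by -0.68, and Fars2 by 0.42, Farsa by -0.86 and Farsb by -0.67. The mitochondrial change was the lower one in 12 of the 14 pairs between R2 and R3, with a median difference (mitochondrial minus cytosolic) of -1.48 and a range of -2.45 to 0.48. The exceptions among the 14 were leucine and arginine. Some mitochondrial signals were dim: in R3, Mars2 lay below the array median on every array and Ears2 on replicates 1 and 2. The sizes of the methionine (-1.62) and glutamate (-1.97) differences are therefore uncertain. Other tested probe sets of Ears2 changed by 0.03 and -1.93. In the alanine pair the difference was -2.45, with Aars2 at -1.83 ± 0.72 and Aars at 0.62 ± 0.33 (0.00 for the second Aars probe set). The signal of Aars2 was spread over 4.65, 6.48 and 7.71 in R3, and its change was -1.01 without replicate 1 of R3, so the order of the alanine, valine (-2.24), cysteine (-2.17) and tyrosine (-2.14) pairs is not resolved. The valine enzymes both had negative changes, Vars2 at -3.16 and Vars at -0.92 ± 0.42. In R2 minus R1 the mitochondrial change was lower in 9 of 14 pairs, with a median difference of -0.10. In R5 minus R3 it was lower in 3 of 14 pairs, with a median difference of 0.85. These counts describe the genes, which share arrays, and were not tested. The R3 arrays enter both R3 minus R2 and R5 minus R3, with opposite sign.

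**Figure D4:**
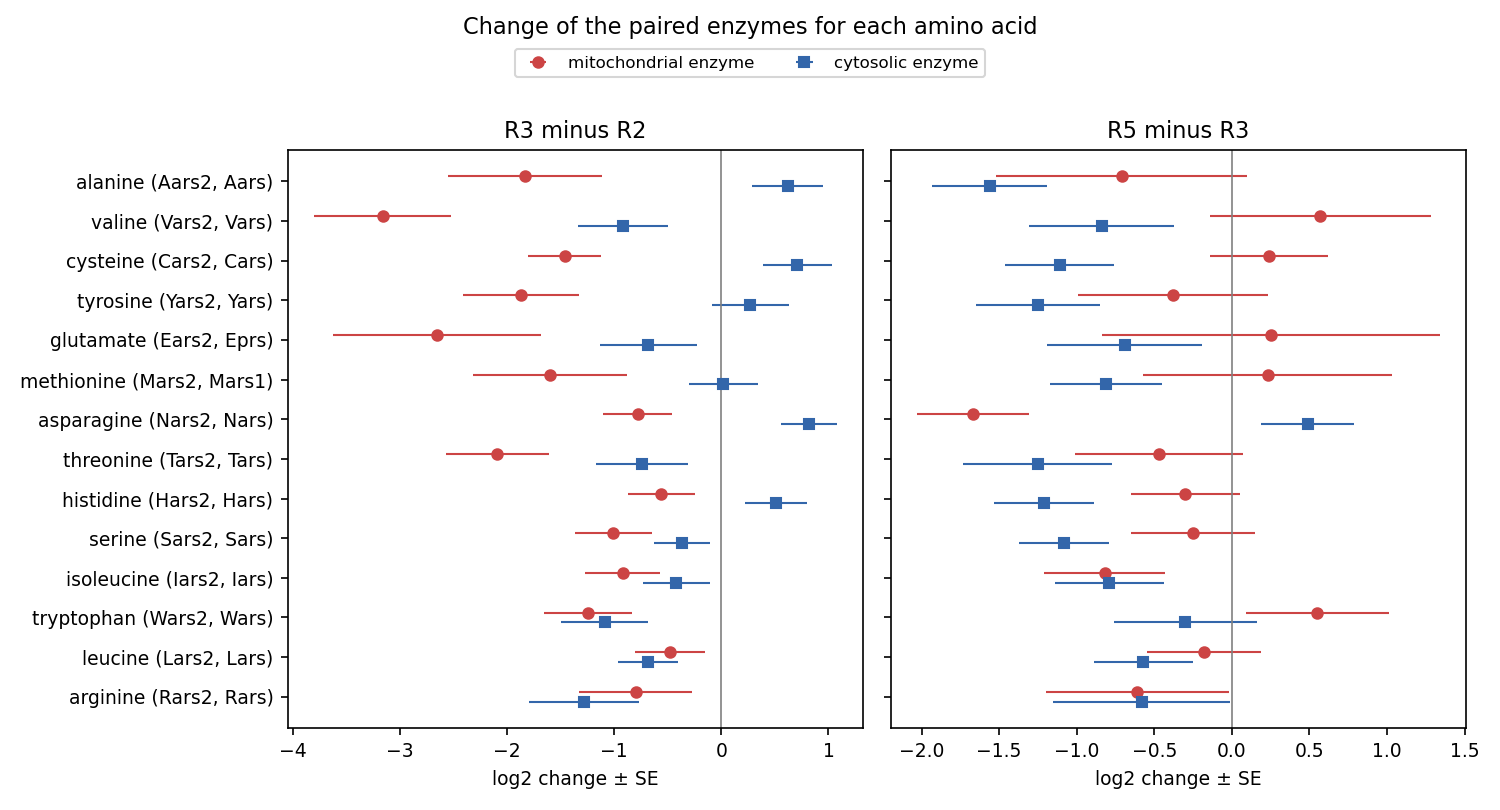
Points are the log2 changes ± SE of the mitochondrial (circle) and cytosolic (square) enzyme for each of 14 amino acids, in R3 minus R2 (left) and R5 minus R3 (right). On the left the circle lies left of the square in 12 of 14 pairs, and on the right in 3 of 14.

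Between R3 and R5, no synthetase gene was called, against 0.00763% of all genes (0% higher and 0.00763% lower). An unadjusted p under 0.05 was reached by 1 mitochondrial gene and 8 cytosolic genes, against 19% of all genes. Of 16 mitochondrial genes, 10 had a negative change, with a median of -0.22, against 0.20 for all genes tested. Of 17 cytosolic genes, 16 had a negative change, with a median of -0.79, the exception being Nars. The mitochondrial and cytosolic medians moved with the R5 arrays. Without replicate 1 of R5 they were -0.88 and -1.27, and without replicate 2 of R5 they were 0.25 and -0.44, so the sign of the mitochondrial median rests on replicate 2 of R5.

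Aars had signals of 10.66 and 10.77 in R5 and 12.37, 12.32 and 12.15 in R3. Both R5 arrays were below all R3 arrays and close to each other, and the change was -1.56 ± 0.37 (limma adjusted p = 0.0925). Hars had 12.60 and 12.64 in R5 and 13.64, 13.89 and 13.93 in R3, a change of -1.21 ± 0.32 (adjusted p = 0.116). For both genes R4, at 11.28 and 13.20, stood between the stages on either side.

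Sars, the seryl enzyme, changed by -1.08 ± 0.29 (adjusted p = 0.116), Yars for tyrosine by -1.25 ± 0.40 (0.162) and Cars by -1.11 ± 0.35 (0.154). The R5 arrays of the tyrosine and cysteine enzymes differed from each other, at 10.03 and 8.77 for Yars and 9.29 and 10.14 for Cars. Without replicate 1 of R5 the changes were -1.88 (adjusted p = 0.0307) and -0.69, and without replicate 2 of R5 they were -0.62 and -1.54. Nars2, the mitochondrial asparaginyl enzyme, had the most negative change of all 33, with 7.66 and 7.34 in R5 and 8.83, 9.19 and 9.47 in R3. Its groups did not overlap, and the change was -1.67 ± 0.36 (limma adjusted p = 0.067, and 0.0465 without replicate 1 of R5). The R5 arrays lay below all R3 arrays for 1 mitochondrial gene and 10 cytosolic genes, against 13.6% of all genes. They lay above them for 1 gene, Fars2, against 22.8%. With each array centred on its median, 6 genes were called lower (Aars, Cars, Hars, Nars2, Sars and Yars). On that scale 578 of all 13100 genes were called lower and 10 higher.

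Over the whole span from R1 to R5, 2 synthetase genes rose and 2 fell. Nars and Fars2 were higher in R5, and Nars2 and Tars2 were lower. The share of all genes called was 16.8%, with 10.2% higher and 6.57% lower. With centred arrays 20.6% of all calls were higher, against 60.8% on the deposited scale. The median change was -1.14 for mitochondrial and -0.55 for cytosolic genes, against -0.31 for all genes. With the replicate number as a block, 5 mitochondrial and 6 cytosolic genes were called lower, and 1 of each higher. In that fit 2021 of all 13100 genes were called lower and 1714 higher.

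Nars had intensities, on the deposited linear scale, of 14176 and 23220 in R5 and 6275 and 4166 in R1. Both R5 arrays were above both R1 arrays, and the change of 1.83 ± 0.32 (limma adjusted p = 0.00455) is a fold of 3.55. A second probe set changed by 1.65. The call held in all 11 fits with 1 array left out and was lost with only the stages compared (adjusted p = 0.0771). Nars2, its mitochondrial counterpart, had 7.66 and 7.34 in R5 and 8.94 and 9.53 in R1. Its change was -1.74 ± 0.40 (adjusted p = 0.0165), a fold of 0.299. The asparagine pair thus moved in opposite directions, by the largest difference of the 14 pairs over this span (-3.57). The Nars2 call was lost on leaving out replicate 2 of R1 (adjusted p = 0.0977) or replicate 2 of R5 (0.0923), with only the stages compared (0.0939) and with the mean of all probe sets (-0.33, 0.668). Its second probe set, below the array median on all 11 arrays, changed by 1.07 and was not tested.

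Fars2 had signals of 10.43 and 10.94 in R5 and 9.57 and 9.11 in R1. The groups did not overlap, and the change was 1.34 ± 0.34 (limma adjusted p = 0.0254), with 0.65 for the second probe set. The call was lost on leaving out either R1 array (adjusted p = 0.0584 for replicate 1 and 0.123 for replicate 2) or replicate 2 of R5 (0.146). On centred arrays the change was 0.76 (0.19), and the adjusted p was 0.148 with only the stages compared and 0.0561 with the mean of all probe sets. Tars2 had 9.05 and 7.61 in R5 and 10.56 and 9.93 in R1. Its change was -1.92 ± 0.59 (adjusted p = 0.0483), and the call held in 3 of the 11 fits that left out 1 array, with adjusted p from 0.0125 to 0.297. Its change was -2.64 without replicate 1 of R5 and -1.20 without replicate 2 of R5, and the call held in 2 of 7 other settings.

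Aars2 for alanine had a change of -2.42 ± 0.88 (adjusted p = 0.0777), more negative than either called fall but with wide spread. Its R5 signals of 6.30 and 4.83 lay below the array medians of 6.91 and 6.75, so its size rests on dim signals. An unadjusted p under 0.05 was reached by 12 of the 33 genes, against 38.6% of all genes. The R5 arrays lay below both R1 arrays for 10 mitochondrial and 3 cytosolic genes, against 35.5% of all genes, and above them for 1 of each, against 29.2%. Leaving out an array of R1 or R5 leaves 1 for that stage. The count of 4 calls then moved, as did that of all genes. The median mitochondrial change was -1.82 without replicate 1 of R5 and -0.46 without replicate 2 of R5.

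Probe sets of a gene did not always move together. The 33 genes had 64 probe sets, 12 genes with a single one. Of the 19 genes with several tested, 0 had one without the sign of the chosen one in R2 minus R1, 6 in R3 minus R2 (Aars, Ears2, Fars2, Iars2, Lars2 and Qars), 3 in R5 minus R3 and 5 in R5 minus R1. For Aars the other probe set changed by 0.00, and for the rest the sign was opposite. For Qars, the glutaminyl enzyme, the chosen probe set changed by -0.59 and another by 1.17 in R3 minus R2. Directions for these genes are therefore those of one probe set. The 4 genes called between R2 and R3 are not among them.

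In the authors' deposited table, which sets each stage against R2, 0 of the 33 genes had a p-value under 0.05 for R3, 0 for R1 and 4 for R5. In the authors' deposited table these belonged to Nars2 (0.016426), Tars2 (0.038186), Sars (0.046904) and Iars2 (0.049473), all lower in R5 than in R2. In the authors' deposited table Vars2 had a p-value of 0.052961 for R3. Its column headings do not say whether the p-values were adjusted for the number of genes. Kars and Rars had an identical one for R1. The share of all genes under the threshold was not counted there, so these counts have no background beside them.

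The partners of the synthetases were read from lists of related genes. The 3 scaffold proteins of the multisynthetase complex (Aimp1, Aimp2 and Eef1e1) had positive changes in R2 minus R1 (median 0.70) and negative ones in R3 minus R2 (-0.76), R5 minus R3 (-0.77) and R5 minus R1 (-0.72), with 0 called in each. Farsa and Farsb changed by -0.86 ± 0.39 and -0.67 ± 0.35 in R3 minus R2, and neither was called. Of 12 related genes outside the symbol rule, 1 was called in R2 minus R1, against 0.466% of all genes. This was Tarsl2, a cytosolic threonyl-tRNA synthetase, with signals of 10.42, 10.54 and 11.08 in R2 and 9.07 and 8.28 in R1. Every R2 array was above both R1 arrays, by 2.00 ± 0.35 (limma adjusted p = 0.0421). The call was borderline: it held in 3 of the 11 fits with 1 array left out, those without R4 or either R5 array, and in 4 of 7 other settings. In 6 of the 11 fits no gene at all was called in R2 minus R1.

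Of the same 12 genes, 1 was called in R3 minus R2 and 1 in R5 minus R1, against 20.7% and 16.8% of all genes. Dtd1, which removes D-amino acids from mischarged transfer RNA, fell in R3 (-2.20 ± 0.61, limma adjusted p = 0.031). Its call was lost without any 1 array of R2 or replicate 2 of R3, with adjusted p up to 0.112. Gatb, a subunit of the complex that makes mitochondrial glutaminyl-tRNA, was at 4.02 and 4.80 in R5 and 8.38 and 7.36 in R1 (-3.46 ± 0.62, adjusted p = 0.00494). Its R5 signals lay well below the array medians, so the size of that fall is uncertain. The call was lost without replicate 1 of R1 (0.055) and with the mean of all probe sets (0.367).

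Of 8 cytosolic elongation factor genes, 3 were called higher in R5 than in R1, against 10.2% of all genes. They were Eef1a1, which delivers charged transfer RNA to the ribosome (0.93 ± 0.28, limma adjusted p = 0.0446), Eef1d (1.16 ± 0.34, 0.0439) and Eif5a (0.99 ± 0.28, 0.0353). These calls did not hold firmly. Each was kept in 1 of 7 other settings, and in 2, 3 and 5 of the 11 fits with 1 array left out. Eefsec, which delivers selenocysteine, fell in R3 (-1.80 ± 0.41, adjusted p = 0.0155), 1 of 8 against 10.1% of all genes. Without replicate 1 of R2 or replicate 2 of R3 its call was lost, with adjusted p up to 0.072.

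Of 8 mitochondrial translation factor genes, 0 were called in R3 minus R2, with 7 negative changes and a median of -0.78. Tufm, the mitochondrial elongation factor that carries charged transfer RNA, was at 10.25, 8.28 and 9.73 in R3 and 11.28, 10.85 and 11.05 in R2 (-1.64 ± 0.57, limma adjusted p = 0.0615). Tufm was named after its values were seen. Mtif3, a mitochondrial initiation factor, was at 4.77 and 3.25 in R5 and 8.25 and 7.86 in R1, 1 of 8 called lower against 6.57% of all genes. The call (adjusted p = 0.00116) held in all 11 fits with 1 array left out, but both R5 signals were far below the array medians, so the fitted change of -4.05 ± 0.57 is uncertain in size.

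Of 21 transfer RNA maturation genes, 3 fell and 1 rose in R3, against 10.1% lower and 10.6% higher of all genes, so the list as a whole was called about as often as the 20.7% of all genes. Ssb, the La protein that binds new transfer RNA precursors, fell by 1.53 ± 0.25 on the log2 scale (limma adjusted p = 0.00325), in each of the 11 fits with 1 array left out. Trmt10c, a subunit of the mitochondrial RNase P that cuts transfer RNAs from their precursors, fell by 1.95 ± 0.45 (0.016). Rpp40 fell by 1.51 ± 0.48 (0.0484), and the RNA kinase Clp1 rose by 1.32 ± 0.37 (0.031). With 1 array left out, Trmt10c was called in 9, Rpp40 in 3 and Clp1 in 6 of 11 fits. Each lost its call without replicate 1 of R2 or replicate 2 of R3. With the mean of all probe sets the adjusted p of Trmt10c was 0.954.

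Of 19 genes of RNA polymerase III, which transcribes transfer RNA genes, 4 fell in R3 and 0 rose, against 10.1% and 10.6% of all genes. They were Polr3e (-2.43 ± 0.58, limma adjusted p = 0.0178), Polr3d (-1.43 ± 0.42, 0.0382), Polr3k (-1.28 ± 0.32, 0.0215) and Gtf3c4 (-1.21 ± 0.33, 0.0281). With 1 array left out they were called in 8, 4, 7 and 6 of 11 fits in that order, and each lost its call without replicate 1 or without replicate 2 of R2.

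Of 23 genes of the amino acid response, Atf4 and genes it is known to induce, 6 rose and 1 fell in R3, against 10.6% and 10.1% of all genes. Ppp1r15a, which helps reverse the block on translation initiation, was at 13.91, 14.51 and 13.52 in R3 and 10.40, 10.55 and 10.33 in R2 (3.55 ± 0.36, limma adjusted p = 0.000436). The serine synthesis gene Psat1 went the other way (-2.61 ± 0.42, 0.00333), and both calls held in all 11 fits with 1 array left out. Chac1 changed by 1.71 ± 0.38 (0.0134) and the amino acid transporter subunit Slc3a2 by 1.40 ± 0.37 (0.0263). Chac1 lost its call without replicate 2 of R2 or replicate 2 of R3, and Slc3a2 without any 1 array of R2 or replicate 2 of R3, with adjusted p up to 0.0591 and 0.106. Asns, which makes asparagine, was the 1 gene of the 23 called in R2 minus R1 (1.94 ± 0.33, adjusted p = 0.0419, against 0.466% of all genes). Its call was as borderline as that of Tarsl2, held in the same 3 of 11 fits and 4 of 7 other settings. The cytosolic synthetase genes, none of which was called between R2 and R3 in the main fit, had changes of -1.28 to 0.82 beside these.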

How the data were processed

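RNA of 11 sorted fetal liver fractions was measured on 1 array each. The deposited values are linear-scale intensities, 1 for each probe set on each array. MAS5 and limma are named in the submitters' processing notes, without versions. The trimmed mean of each array (2% off each end) was 500. A second deposited table gives stage means in log2, log2 differences from R2 and p-values, and its means equalled those recomputed here within 0.005. The labels name Cy5 as dye, and the probe sets are those of a short-oligonucleotide array. Depth does not apply to arrays, and their number limits the precision.

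Intensities were taken to log2 with no pseudocount or further normalization. Of 45037 probe sets other than controls, 34945 had 1 gene in the platform annotation, 932 several and 9160 none. Probe sets with several genes, among them 1 shared by Aars, were not used. A gene was tested where its probe set reached the array median on at least 2 arrays. All 11 arrays entered 1 limma 3.58.1 fit (R 4.3.3) with a mean per stage and eBayes with an intensity trend (6 residual and 4.83 prior degrees of freedom). P-values were Benjamini-Hochberg adjusted over 13100 genes, and calls are at an adjusted p under 0.05. The single R4 array is given as values only. The procedure was tested on simulated data.

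The members, gene lists and motifs were chosen with earlier results of these data known. Any synthetase gene could be named, though some items are not reported here, and from each other list up to 4 called genes with the largest change per comparison. Per the labels, each set of replicates shared an extraction date without saying what a set is. If it is a stage, date and stage cannot be told apart. Alternatives were quantile normalization, centring on the array median, no filter, no trend, only the stages compared, the replicate number as a block, the mean of all probe sets, and leaving out each array.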

Additional observations from a re-analysis of the deposited data

How the results depend on the processing

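No called synthetase gene turned its direction while called under any alternative, and 66 of 2372 gene values changed sign where neither value was called. Over the fits with 1 array left out, 1397 gene values kept their side of the threshold, 22 lost a call and 33 gained one; over the other settings it was 847, 14 and 59. Leaving out 1 array gave 1 to 12 calls in R3 minus R2, 0 to 2 in R5 minus R3, 1 to 14 in R5 minus R1 and 7 to 23 by the F-test, beside 4, 0, 4 and 15 with all arrays. The median mitochondrial change then ran from 0.23 to 0.58 in R2 minus R1, -1.27 to -0.99 in R3 minus R2, -0.88 to 0.25 in R5 minus R3 and -1.82 to -0.46 in R5 minus R1, and the cytosolic one from 0.23 to 1.01, -0.53 to -0.32, -1.27 to -0.44 and -0.98 to -0.16.

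Centring each array on its median, which shifts the median of all genes to 0.30, -0.55, -0.34 and -0.89 in the 4 comparisons, gave 14, 6 and 15 calls in R3 minus R2, R5 minus R3 and R5 minus R1, and 29 by the F-test. The mitochondrial medians became -0.76 in R5 minus R3 and -1.73 in R5 minus R1, and the cytosolic ones -0.83, -1.33 and -1.14 in R3 minus R2, R5 minus R3 and R5 minus R1. Using only the stages compared gave 12 calls in R3 minus R2 (7 mitochondrial and 4 cytosolic lower, 1 cytosolic higher) and 0 in R5 minus R1. Whether arrays of one number are pairs is not settled: their deviations from the stage means correlated at -0.15 to 0.40, over 0.1 in 10 of 13 same-number pairs. The fit with the replicate number as a block gave 14, 13 and, by the F-test, 23, with 7 mitochondrial genes lower, 6 cytosolic lower and 1 cytosolic higher (Nars) in R3 minus R2, and in R5 minus R1 5 mitochondrial lower, 1 higher, 6 cytosolic lower and 1 higher. Without the intensity trend the F-test gave 8. The mean of all probe sets, over 11753 genes and without Mars2, gave 2 calls in R5 minus R1 (Nars and Yars2, with Nars2, Tars2 and Fars2 lost) and a mitochondrial median of -0.61 there. Over all genes, the calls in R2 minus R1 (61) were 100 with centring, 38 with the mean of probe sets, and 0 without the trend, with only the stages compared and with the block. Those in R3 minus R2 (2716) were 4197 with the block. Those in R5 minus R3 (1) were 14 with quantile normalization, 588 with centring, 169 with the block, 9 with the mean of probe sets and 0 otherwise. Those in R5 minus R1 (2195) were 4520, 700 and 3735 with centring, only the stages compared and the block. Leaving out 1 array gave 0 to 87, 840 to 3920, 0 to 633 and 631 to 4340. The causes were not tested.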
